A study of Mus musculus with 3 samples.

Results

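The nuclear-encoded subunits of the mitochondrial respiratory chain were followed through the differentiation of mouse bone marrow macrophages into osteoclasts. Members were chosen by gene symbol alone: NADH dehydrogenase subunits (Ndufa, Ndufb, Ndufc, Ndufs and Ndufv genes), succinate dehydrogenase (Sdha to Sdhd), the Uqcr genes with Cyc1, cytochrome c (Cycs), the Cox4 to Cox8 genes and the Atp5 genes. This gave 80 genes of 12393 on the array, with 151 probe sets between them. There were 33 genes of complex I, 4 of complex II, 9 of complex III, 1 for cytochrome c, 16 of complex IV and 17 of complex V. Ndufa4, counted here under complex I by its symbol, is known as a subunit of complex IV.

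The 3 groups were cultures of C57/BL6 bone marrow cells, each grown for 3 days with 50 ng/ml of human M-CSF, a macrophage growth factor. They were harvested after 0, 24 or 72 h of human RANKL (150 ng/ml), the cytokine that turns such macrophages into bone-resorbing, multinucleated osteoclasts; the labels call these stages precursor, differentiating precursor and osteoclast. Each time was measured on 1 Affymetrix array. The differences below therefore have no replicate check and no test, and precision is limited by the 3 arrays. Cultures without RANKL were harvested at 0 h only, so RANKL and time in culture cannot be told apart. The sources used here do not give the number, age or sex of the animals.

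The respiratory chain sits in the inner mitochondrial membrane. Complexes I and II pass electrons from NADH and succinate to ubiquinone, complex III passes them on to cytochrome c, and complex IV passes them to oxygen. Complexes I, III and IV pump protons as they do so, and complex V, the ATP synthase, uses the proton gradient to make ATP. Osteoclasts are known for their many mitochondria and their high demand for ATP, part of which drives the proton pump that acidifies the bone surface. Most subunits are encoded in the nucleus and have to be matched by a few subunits encoded in mitochondrial DNA.

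Values are microarray signals, centred so that the 3 arrays share 1 median; a difference is therefore a change relative to the median probe set. Before centring, the 24 h median lay above the 0 h median by 0.73 on the log2 scale and the 72 h median by 0.77. A gene was represented by its brightest probe set with a single gene symbol, and it counted as measured when its mean over the 3 arrays was above a floor of 29.6 signal units. Higher or lower means a factor of at least 2. The technical error is how far paired probe sets of 1 gene differ in their log2 change (SD over genes, divided by the square root of 2), and it holds no variation between cultures. It was 0.41 in the comparison of 24 h with 0 h, 0.49 in that of 72 h with 0 h and 0.36 in that of 72 h with 24 h. Among the subunits alone, over 41 genes, the same 3 values were 0.32, 0.38 and 0.20.

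The cultures carried the markers of their labels. For 9 osteoclast markers, all at least 2-fold higher at 72 h than at 0 h, the signals at 0, 24 and 72 h summed to 1929, 8639 and 33298. For 10 macrophage markers, of which 7 were lower and 1 higher at 72 h, they summed to 35455, 18996 and 21435. Other cell types changed as well. For 8 neutrophil and precursor markers the sums were 17910, 12655 and 1306, for 5 megakaryocyte and platelet markers 8726, 1738 and 816, and for 5 stromal and osteoblast markers 2124, 2550 and 7769. Of the T and NK cell markers 0 of 4 were above the floor on any array, and 1 of 5 B cell and 1 of 4 erythroid markers was measured. The ratio of the 3′ to the 5′ control probe set of Gapdh, a sign of RNA integrity, was 1.19, 0.975 and 0.749 on the arrays of 0, 24 and 72 h. The part these shifts have in the results below was not tested, and in such bulk samples fewer cells of a type cannot be told apart from less RNA per cell.

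Of the 80 subunit genes 78 were measured, and nearly all of them lay above their 0 h signal by 72 h. At 72 h against 0 h, 40 of 78 were at least 2-fold higher and 0 lower, where 13.1% of all 7869 measured genes were higher and 13.4% lower. The subunits' median log2 difference was 1.06, against -0.01 over all measured genes. At 24 h against 0 h, 21 of 78 were higher and 0 lower, with 14.0% of all genes higher and 9.37% lower, and the medians were 0.79 for the subunits and 0.15 for all genes. That count depended on the scaling: after quantile normalization it was 10, with 10.7% of all genes higher, and after trimmed mean scaling it was 9, with 9.75% of all genes higher, so the 24 h count was then near the background. Between 72 h and 24 h only 1 subunit was higher by 2-fold, Cox7a1, and 0 were lower (6.91% and 10.6% of all genes), with medians of 0.32 and -0.17.

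The median difference was thus larger over the first 24 h than after them. Set against the median of all measured genes the contrast was smaller, at 0.64 over the first 24 h and 0.49 after them. After quantile normalization these values were 0.53 and 0.47. The 72 h signal was above the 24 h signal in 69 of 78 subunits. It was below it in 9, which were Ndufa5, Ndufa8, Ndufb1, Ndufb8, Cox6b1, Cox7c, Atp5g2, Atp5k and Atp5mpl. Of the 40 subunits higher at 72 h, 20 had already been higher at 24 h, and Ndufa8 was higher at 24 h alone. The call at 72 h was close for some: 3 subunits lay within 0.1 log2 units above the 2-fold line and 6 within 0.1 below it. Subunits are bright on this array, with 67 of the 78 in the brightest 10% of measured genes. The 720 other genes of that brightest group had a median log2 difference of 0.12 at 72 h and 0.31 at 24 h against 0 h.

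**Figure D1:**
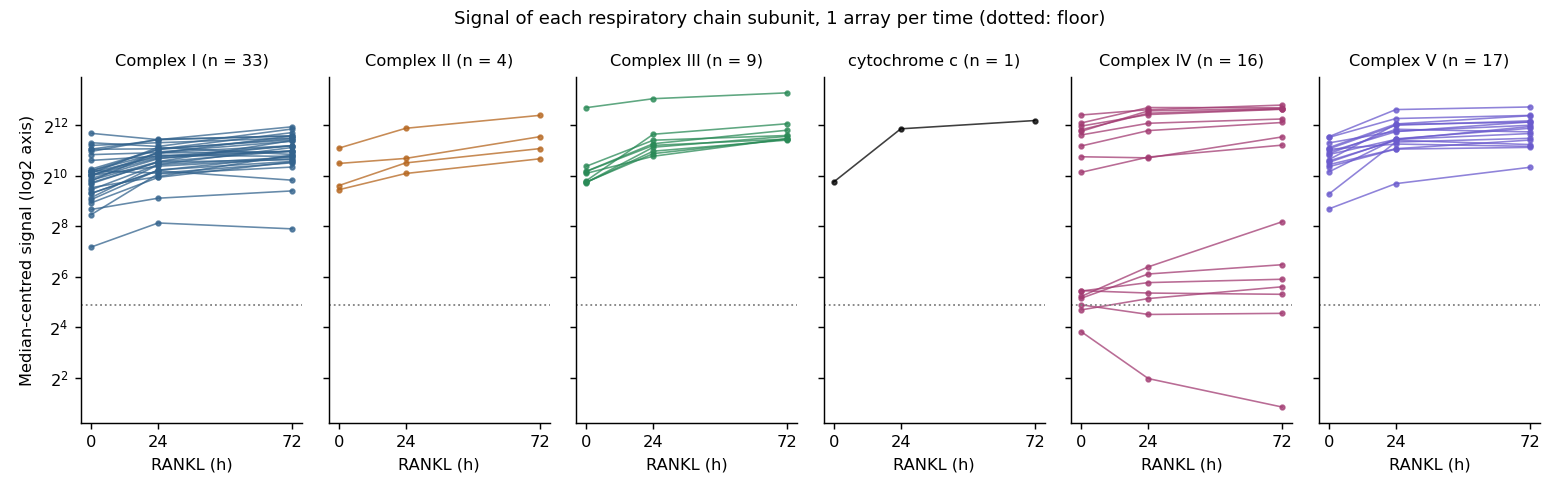
Median-centred signal (log2 axis) of each of the 80 subunit genes at 0, 24 and 72 h of RANKL, 1 line per gene and 1 panel per complex; the dotted line is the floor of 29.6. Of the 78 measured genes 77 lie higher at 72 h than at 0 h, and dim complex IV isoforms lie near the floor.

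The complexes differed in how far they moved. Of all measured genes 13.1% were higher at 72 h against 0 h. At 72 h against 0 h the medians of the log2 difference were 1.63 for complex III (8 of 9 subunits higher), 1.26 for complex II (4 of 4), 1.11 for complex V (9 of 17), 0.94 for complex I (15 of 33) and 0.75 for complex IV (3 of 14 measured). At 24 h the medians were 1.10 for complex III (7 of 9 higher), 0.91 for complex V (5 of 17), 0.78 for complex I (7 of 33), 0.72 for complex II (0 of 4) and 0.53 for complex IV (1 of 14), where 14.0% of all genes were higher. These 24 h counts depended on the scaling: after quantile normalization and after trimmed mean scaling they were 3 of 9, 3 of 17 and 2 of 33 for complexes III, V and I. The ranges overlap: at 72 h complex III ran between 0.59 and 2.26, and complex IV between -0.14 and 2.96. A scaling that shifts all genes alike cannot change the order of the medians. After quantile normalization, which can, complex III stayed highest and complex IV lowest, with 0.87 and 0.32 at 24 h and 1.39 and 0.65 at 72 h. With the mean over all probe sets of a gene, complex III was highest at both times (1.13 and 1.63), and the lowest was complex II at 24 h (0.56) and complex IV at 72 h (0.84). With the mean over probe sets above the floor on all arrays, the complexes lay closer at 72 h. Complex III, still highest, then had 1.03 at 24 h and 1.38 at 72 h, and complex IV, still lowest, 0.55 and 0.86. The complexes also differed in brightness at 0 h. Complex III signals ran between 852 (Uqcrc2) and 1332 (Uqcrh), apart from Uqcrb at 6670. Those of the ubiquitous complex IV subunits ran between 1130 (Cox8a) and 5455 (Cox6a1), apart from the dim Cox7c. The part of signal level in the order of the complexes was not tested. The same 3 arrays stand behind every setting, and with 1 array per time the difference between complexes has no test.

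**Figure D2:**
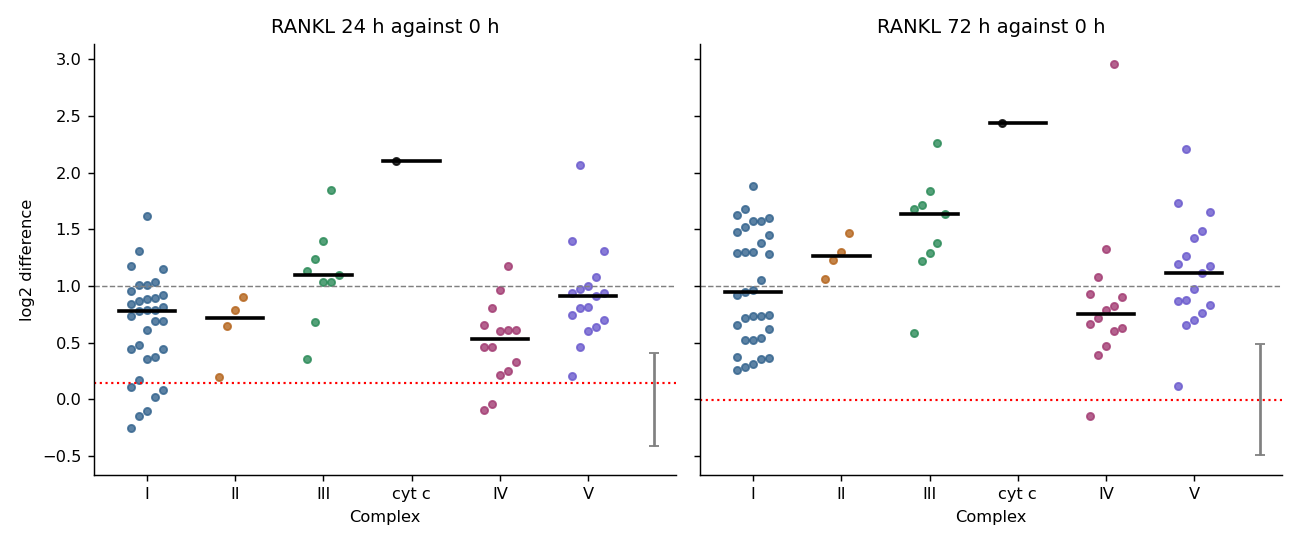
log2 difference of each measured subunit (1 point per gene) by complex, for 24 h against 0 h (left) and 72 h against 0 h (right). Black bars are medians, the red dotted line is the median of all measured genes, the dashed line marks 2-fold, and the grey bar spans 1 technical error each way; at 72 h the complex III median of 1.63 stands highest among the 5 complexes and the complex IV median of 0.75 lowest.

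Complex I, the NADH dehydrogenase, has a core of subunits that carry its flavin and iron-sulfur clusters, surrounded by accessory subunits. Of its 6 core subunits measured here, 4 were higher at 72 h (median 1.38), where 13.1% of all genes were higher. Ndufv1, which binds NADH, had a signal of 699 at 0 h, 1402 at 24 h and 2233 at 72 h. Ndufs1, the large iron-sulfur subunit, had 487, 983 and 1502. Both increased at each step, and at 72 h they were 3.19-fold and 3.08-fold above 0 h. Ndufs3, a core subunit near the site of ubiquinone reduction, had signals of 631, 1192 and 1754, and Ndufv2, an iron-sulfur subunit, 1177, 2109 and 2860. Their 72 h values were 2.78-fold and 2.43-fold higher, and the 3 probe sets of Ndufv2 ranged in log2 difference between 1.06 and 2.10. The 2 core subunits that carry the clusters next to ubiquinone stayed within 2-fold. Ndufs7 had 1040, 1922 and 2000, with nearly all of its difference by 24 h. Ndufs8 had 2002, 2794 and 3073 by the brightest of its 6 probe sets, which ranged in log2 difference between 0.24 and 1.18 at 72 h against 0 h.

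The accessory subunits of complex I spread widely. The 10 Ndufb subunits, which belong to the membrane arm, had a median log2 difference of 1.18 at 72 h, and the 12 Ndufa subunits 0.70. Ndufb2 had the largest difference in the complex, with signals of 353, 1082 and 1304, or 3.69-fold at 72 h over 0 h. Ndufb10 (563, 1390 and 1709) was 3.04-fold higher and Ndufb5 (892, 1974 and 2649) 2.97-fold. The second probe set of Ndufb5 (719, 1104 and 1437) was 1.53-fold above 0 h at 24 h and 1.997-fold at 72 h. By their brightest probe sets, Ndufb2, Ndufb10 and Ndufb5 had crossed 2-fold by 24 h. Ndufc1 (911, 1515 and 2708) and Ndufa6 (741, 1005 and 1817) crossed it later, at 2.97-fold and 2.45-fold by 72 h, having been 1.66-fold and 1.36-fold above 0 h at 24 h.

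At the other end of complex I were subunits whose 72 h signal was close to that at 0 h. Ndufa13, also known as the cell death regulator GRIM-19, had signals of 3295 at 0 h, 2767 at 24 h and 3945 at 72 h. Ndufa3 had 2366, 2547 and 2892, and Ndufv3, an accessory subunit of the NADH-binding module, 1185, 1102 and 1467. Their log2 differences at 72 h against 0 h, 0.26, 0.29 and 0.31, are smaller than the technical error of 0.49 over all genes and 0.38 over subunits. Between 72 h and 24 h the differences of Ndufa13 and Ndufv3, 0.51 and 0.41, exceed the technical error of 0.36. Ndufa7 depended on the probe set, with 5 that gave log2 differences between 0.65, for the brightest, and 1.94 at 72 h against 0 h. Ndufa1, small and anchored in the membrane, was 1.11-fold below 0 h at 24 h and 1.46-fold above it at 72 h (2545, 2298 and 3714). Ndufa5 and Ndufa8 had their highest signals at 24 h. For Ndufa5 these were 634, 1177 and 909, and for Ndufa8 1098, 2249 and 1843; the log2 differences between 72 h and 24 h, -0.37 and -0.29, are close to the technical error of 0.36 over all genes and larger than that of 0.20 over subunits. The second probe set of Ndufa5 gave -0.43. The SD over all 33 subunits was 0.49 at 72 h against 0 h, beside a technical error of 0.49 over all genes and 0.38 over subunits.

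Complex II, succinate dehydrogenase, is the one complex of the chain that is also an enzyme of the tricarboxylic acid cycle, and all of its subunits are encoded in the nucleus. By the brightest probe set of each, its 4 subunits crossed 2-fold after 24 h. The flavoprotein Sdha had signals of 1440 at 0 h, 1654 at 24 h and 3004 at 72 h, and the iron-sulfur subunit Sdhb had 2191, 3784 and 5400. The membrane anchors Sdhc and Sdhd had 699, 1093 and 1636, and 783, 1462 and 2163. At 24 h all 4 were within 2-fold of 0 h, the largest being Sdhd at 1.87-fold. At 72 h all 4 were higher, between 2.09-fold for Sdha and 2.76-fold for Sdhd. Their median log2 difference between 72 h and 24 h was 0.57, the largest of the 5 complexes over that interval, with 0.43 for complex III, 0.34 for complex I, 0.20 for complex IV and 0.18 for complex V. With the mean over all probe sets of a gene the lead was small, at 0.46 beside 0.44 for complex III and 0.41 for complex I. Sdha and Sdhc were each past 2-fold at 72 h in 9 of 11 alternatives. Sdha fell under it after quantile normalization and after trimmed mean scaling, and Sdhc with either mean over probe sets. The second probe set of Sdhc (477, 487 and 576) gave a log2 difference of 0.27. The second probe set of Sdhd (105, 170 and 160) was 1.52-fold above 0 h at 72 h. Its log2 difference between 72 h and 24 h was -0.09.

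Complex III, the cytochrome bc1 complex, had the highest median of the 5 complexes, and its electron acceptor cytochrome c lay above that median. Cyc1, the cytochrome c1 haem subunit, had signals of 896 at 0 h, 3214 at 24 h and 4287 at 72 h, or 3.59-fold and 4.79-fold above 0 h. The Rieske iron-sulfur protein Uqcrfs1 had 855, 2018 and 2740 and was 3.21-fold higher at 72 h. The core protein Uqcrc2 had 852, 2249 and 3036, a factor of 3.56 at 72 h, and its partner Uqcrc1 had 1154, 2366 and 2819, a factor of 2.44. By these probe sets all 4 had crossed 2-fold by 24 h, Uqcrc1 and Uqcrc2 in 9 of 11 alternatives each. Uqcrc1 has 1 bright probe set, so only the scaling of the arrays could move its value. It fell under 2-fold after quantile normalization and after trimmed mean scaling. Uqcrc2 fell under 2-fold with either mean over probe sets. The other probe set of Uqcrc2 (999, 1480 and 2673) was 1.48-fold above 0 h at 24 h and 2.68-fold at 72 h. The small subunits Uqcr10, Uqcr11, Uqcrh and Uqcrq were between 2.33-fold and 3.28-fold higher at 72 h. Uqcrq stands on 1 bright multi-transcript probe set, and its other probe sets were near or under the floor. The remaining subunit, Uqcrb, was within 2-fold by its brightest probe set (6670, 8537 and 10026), while its other probe set had 592, 1031 and 1993. The 2 probe sets of Uqcrb thus gave log2 differences of 0.59 and 1.75 at 72 h against 0 h.

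Cytochrome c, the soluble carrier between complexes III and IV that also takes part in apoptosis, had the largest 24 h difference of all 78 measured subunits. Cycs had signals of 867 at 0 h, 3730 at 24 h and 4684 at 72 h, which put it 4.30-fold and 5.40-fold above 0 h. Its 3 probe sets gave log2 differences between 2.03 and 2.43 at 72 h, all larger than 4 times the technical error. Among all 7869 measured genes its difference ranked 104th at 24 h and 140th at 72 h against 0 h. Hccs, the enzyme that attaches haem to cytochromes c and c1, had signals of 140, 434 and 480 and was 3.44-fold higher at 72 h.

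Complex IV, cytochrome c oxidase, has nuclear subunits that come in ubiquitous and tissue forms. Its 9 ubiquitous subunits, bright apart from Cox7c, had a median log2 difference of 0.67 at 72 h against 0 h. Cox4i1, the largest nuclear subunit, had signals of 4022 at 0 h, 5522 at 24 h and 6386 at 72 h. Cox6a1 had 5455, 6312 and 7168, and Cox6b1 4385, 6697 and 6656. Their differences at 72 h, by factors of 1.59, 1.31 and 1.52, were within 2-fold by the brightest probe set. The second one of Cox6a1 (1459, 2469 and 3915) was 2.68-fold higher, and 1 of the 3 of Cox5a (878, 2027 and 2728) was 3.11-fold higher. Cox8a, with signals of 1130, 1717 and 2382, was the sole ubiquitous subunit past 2-fold by its brightest probe set, at 2.11-fold. It was past 2-fold in 9 of 11 alternatives and fell under it after quantile normalization and after trimmed mean scaling. The 5 probe sets of Cox5b above the floor gave log2 differences at 72 h of -0.03 for a dim one, 0.83 for the brightest, 1.24 for each of 2 and 2.11. With the mean over probe sets above the floor, 5 of 14 complex IV subunits were past 2-fold in place of 3. The 2 probe sets annotated to Cox7c were dim, with 43.7, 40.9 and 39.5 for the brighter one and the other under the floor on all 3 arrays. Cox7a2l, a factor that joins complexes III and IV into supercomplexes, had 1731, 1680 and 2988, a 1.78-fold difference between 72 h and 24 h after a log2 difference of -0.04 over the first day.

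The isoform Cox7a1, known from heart and skeletal muscle, had the largest difference of the subunits at 72 h under the floor of 29.6. Its signal was 37.3 at 0 h, just above the floor, 84.0 at 24 h and 290 at 72 h. It was 2.25-fold higher at 24 h and 7.79-fold higher at 72 h than at 0 h, ranking 81st among all measured genes at 72 h. This value rests on a 0 h signal near the floor. With the floor at the 60th percentile, both the 0 h and the 24 h signal were at it, the log2 difference was 0.00 at 24 h and at least 1.65 at 72 h, and Cycs, Cyc1 and Atp5g1 had larger ones. The ubiquitous form Cox7a2 had 3487, 6109 and 6511, within 2-fold, and its second probe set (1673, 3074 and 3724) was 2.23-fold higher at 72 h. Cox7a1 has 1 probe set on the array, so no second probe set bears on its value. Muscle markers gave a summed signal of 144, 188 and 202 over 5 genes, with Myh4, Tnnt3 and Myl1 under the floor on all 3 arrays. Ckm was above the floor throughout (118, 132 and 124), and Acta1 was under it at 0 h alone (8.80, 38.2 and 33.7). The other tissue forms stayed dim. Cox8c had 35.4, 69.0 and 89.1 and was 2.51-fold higher at 72 h, Cox6b2 had 43.2, 54.5 and 59.7, and Cox6a2 began under the floor (25.7, 35.1 and 48.6). Cox4i2 and Cox8b were under the floor on all 3 arrays and have no fold.

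Complex V, the ATP synthase, joins a catalytic F1 head to a rotating ring of c subunits in the membrane. In the head, Atp5b, the catalytic beta subunit, had signals of 1598 at 0 h, 4212 at 24 h and 4478 at 72 h, and was 2.64-fold and 2.80-fold higher. Atp5a1, the alpha subunit, had 2946, 4948 and 5394, within 2-fold at a factor of 1.83. Atp5c1, the gamma subunit that turns inside the head, had 2222, 4262 and 5351 by its bright multi-transcript probe set. It was 2.41-fold higher at 72 h, while its dim second probe set had 75.0, 39.8 and 47.8 and moved the other way. Atp5d, the delta subunit, gave log2 differences of 1.11 and 1.94 at 72 h by its 2 probe sets. In the stalk that holds the head in place, Atp5o had 1141, 2831 and 3785 and was 3.32-fold higher at 72 h, and the other 3 members were within 2-fold (Atp5h, Atp5j and Atp5pb, 1.62-fold to 1.97-fold). Of the small membrane subunits, Atp5md, needed for dimers of the enzyme, was 3.14-fold higher (413, 827 and 1295) and Atp5l 2.68-fold (1483, 2783 and 3971). Between 72 h and 24 h complex V had a median log2 difference of 0.18, beside -0.17 over all measured genes. Of its 17 subunits 0 were past 2-fold, as in complexes I, II and III, with 6.91% of all genes higher and 10.6% lower. Its largest difference over that interval was 0.65, for Atp5md.

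The c ring is built from 1 mature protein that 3 genes encode, differing in the import sequence that is cut off in mitochondria. These genes moved unequally. Atp5g1 had signals of 621 at 0 h, 2593 at 24 h and 2873 at 72 h, and was 4.18-fold and 4.63-fold higher. Atp5g3 had 3003, 6331 and 6801, and was 2.11-fold and 2.26-fold higher. Atp5g2 had 2122, 2455 and 2304, a difference of 0.12 on the log2 scale at 72 h against 0 h. The technical error of 0.49 is that of the change of 1 gene, and a gap between 2 genes carries the error of both. The log2 differences at 72 h, 2.21 for Atp5g1, 1.18 for Atp5g3 and 0.12 for Atp5g2, lie further apart than 0.49. None of their probe sets is of a type that the array marks as matching several genes, and cross-hybridization between the 3 genes was not tested. Atp5g1 and Atp5g3 have 1 probe set each, and the second one of Atp5g2 was near the floor.

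**Figure D3:**
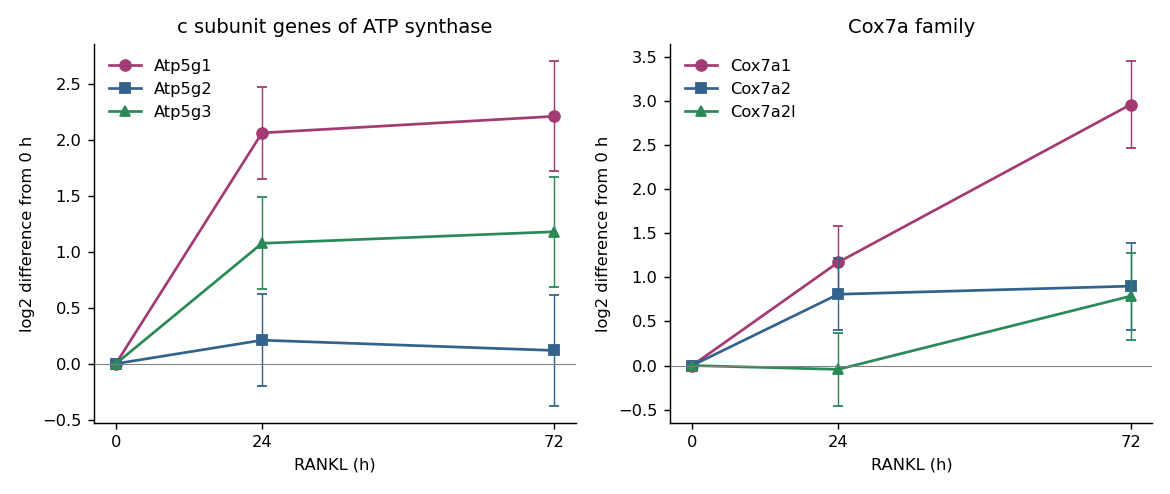
log2 difference from 0 h at 24 and 72 h of RANKL for the 3 c subunit genes of complex V (left) and for the Cox7a family (right), 1 array per time; bars are the technical error of 0.41 at 24 h and 0.49 at 72 h. Atp5g1 reached 2.21, Atp5g3 1.18 and Atp5g2 0.12 at 72 h, and Cox7a1 2.96 beside 0.90 for Cox7a2.

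The promoters of these gene groups are shown because their members encode the same or like proteins and moved apart. Each runs from 250 bases before to 50 after the start site (RefSeq, GRCm38.p6) and is written 5′ to 3′ on the gene's strand. Capitals mark matches on either strand to 5 motifs of factors known for nuclear-encoded mitochondrial genes or growth: NRF1 (GCGCA, any base, then GCGC), ETS factors such as GABPA (CCGGAAGT), oestrogen-related receptors (TCAAGGTCA), YY1 (AAGATGGCG) and the E-box of Myc and Mitf (CACGTG). None of the matches shown overlaps another. Atp5g1 lies at chr11:96075582-96075881 on the minus strand, Atp5g2 at chr15:102670998-102671297 on the minus strand and Atp5g3 at chr2:73911277-73911576 on the minus strand. Cox7a1 lies at chr7:30183921-30184220 on the plus strand and Cox7a2 at chr9:79759804-79760103 on the minus strand.
Atp5g1: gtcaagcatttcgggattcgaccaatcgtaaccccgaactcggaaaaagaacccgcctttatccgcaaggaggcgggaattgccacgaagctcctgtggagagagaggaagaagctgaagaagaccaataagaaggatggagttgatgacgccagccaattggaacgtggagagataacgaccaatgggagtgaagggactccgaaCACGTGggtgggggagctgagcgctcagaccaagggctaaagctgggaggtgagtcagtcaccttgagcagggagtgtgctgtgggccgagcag
Atp5g2: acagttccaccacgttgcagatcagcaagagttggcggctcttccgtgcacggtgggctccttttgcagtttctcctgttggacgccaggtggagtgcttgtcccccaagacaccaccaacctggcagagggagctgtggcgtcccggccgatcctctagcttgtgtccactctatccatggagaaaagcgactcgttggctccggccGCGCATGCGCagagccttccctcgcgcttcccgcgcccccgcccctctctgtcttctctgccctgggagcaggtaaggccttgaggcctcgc
Atp5g3: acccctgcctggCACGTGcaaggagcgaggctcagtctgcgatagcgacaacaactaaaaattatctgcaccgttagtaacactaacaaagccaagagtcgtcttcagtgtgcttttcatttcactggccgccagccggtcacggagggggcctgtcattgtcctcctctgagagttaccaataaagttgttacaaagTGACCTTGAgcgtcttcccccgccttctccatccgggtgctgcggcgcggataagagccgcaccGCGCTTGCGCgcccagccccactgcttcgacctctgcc
Cox7a1: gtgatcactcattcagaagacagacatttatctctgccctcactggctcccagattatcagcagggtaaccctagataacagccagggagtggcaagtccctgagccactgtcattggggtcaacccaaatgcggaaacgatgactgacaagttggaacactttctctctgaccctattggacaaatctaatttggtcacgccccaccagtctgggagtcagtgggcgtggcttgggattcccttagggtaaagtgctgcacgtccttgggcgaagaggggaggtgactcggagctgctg
Cox7a2: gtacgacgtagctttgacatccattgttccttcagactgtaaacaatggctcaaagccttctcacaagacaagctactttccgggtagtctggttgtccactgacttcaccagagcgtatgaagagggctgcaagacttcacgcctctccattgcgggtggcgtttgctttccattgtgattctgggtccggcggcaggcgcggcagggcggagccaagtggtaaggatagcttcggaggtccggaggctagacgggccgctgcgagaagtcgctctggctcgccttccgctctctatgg
Atp5g1, the c subunit gene with the largest difference, holds an E-box whose first base is 44 bases before the start site. Atp5g2, the gene that hardly differed, holds an NRF1 match at 42 bases before it. Atp5g3 holds 3 matches, an E-box at 238 and an oestrogen-related receptor motif at 52 bases before the start site and an NRF1 match at position 13 after it. The Cox7a1 and Cox7a2 windows hold 0 matches. A match is a description of letters and not evidence of binding.

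Of the 80 subunit genes 65 had a promoter in the table, with 70 promoters between them. The NRF1 motif was in 15 of these 70, or 21.4%, against 4.60% of all 32851 promoters, the YY1 motif in 8.57% against 1.40%, the ETS motif in 7.14% against 3.89%, the E-box in 7 of 70 against 7.15% and the oestrogen-related receptor motif in 2.86% against 0.423%. At 72 h against 0 h the 14 measured subunits with the NRF1 motif had a median log2 difference of 1.06 and the 50 without it 1.03. For the other motifs the medians with and without were 1.08 and 1.06 for YY1 (6 and 58 subunits), 1.22 and 0.98 for ETS (5 and 59), 1.30 and 1.02 for the E-box (6 and 58) and 1.32 and 1.02 for the oestrogen-related receptor motif (2 and 62).

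Genes that serve the complexes outside the 80 were described from lists. Of 39 measured assembly factors, the proteins that build complexes I to V, 11 were higher at 24 h against 0 h (14.0% of all genes) and 12 at 72 h (13.1% of all genes), and 0 lower at either time. Their medians were 0.74 at 24 h and 0.70 at 72 h, beside 0.79 and 1.06 for the subunits. Between 72 h and 24 h the assembly factors had a median of -0.09 and the subunits 0.32. Ndufaf4, an assembly factor of complex I, had signals of 161, 865 and 468, and was 5.37-fold above 0 h at 24 h and 2.91-fold above it at 72 h. Timmdc1, another of complex I, had 68.5, 135 and 201 (2.93-fold at 72 h). At the low end of that complex, Acad9 and Ndufaf7 differed by factors of 1.02 and 1.14 at 72 h.

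For complex III the 6 factors, Hccs among them, had medians of 1.05 and 0.69 at 24 and 72 h, with Ttc19 at 29.7, 67.5 and 57.6, the chaperone Bcs1l at 92.9, 194 and 132 and Uqcc3 at 258, 396 and 299. For complex IV, 4 of 17 factors were higher at 72 h, or 23.5% beside 13.1% of all genes. Coa6, a copper-handling factor, had 144, 351 and 474 (3.30-fold), and Cox15, needed to make haem a, had 142, 155 and 330 (2.33-fold). Pet100 and Cmc2 lay lowest, at log2 differences of -0.34 and -0.12. For complex V, Tmem70 had 187, 334 and 614 (3.28-fold) and Fmc1 92.1, 291 and 210 (2.28-fold). The 3 factors of complex II stayed within 2-fold, the furthest being Sdhaf2 at 1.62-fold.

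Ubiquinone, the lipid carrier between complexes I or II and complex III, and its other electron donors were represented by 14 measured genes, of which 6 were higher and 0 lower at 72 h (median 0.92), with 13.1% and 13.4% of all genes. Coq8a, a kinase-like protein needed for ubiquinone synthesis, had signals of 44.7, 124 and 587, or 13.1-fold at 72 h over 0 h. Etfdh, which passes electrons from fatty acid oxidation to ubiquinone, had 201, 326 and 1075, or 5.35-fold. At the low end were Coq4 (137, 149 and 81.6) and Dhodh, a pyrimidine synthesis enzyme that reduces ubiquinone (75.3, 110 and 57.7), both within 2-fold.

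Among 15 measured regulators of mitochondrial genes 1 was higher and 0 lower at 72 h against 0 h, with a median of -0.05, and 2 were higher and 0 lower at 24 h (median 0.44). With 13.1% of all genes higher at 72 h and 14.0% at 24 h, these counts are not above the background. The one higher at both times was Ppargc1b, a coactivator of mitochondrial gene expression, with signals of 154, 427 and 655. Pprc1, a relative that responds to growth signals, was higher at 24 h alone (139, 313 and 158). Esrra, the oestrogen-related receptor that binds these coactivators, had 161, 236 and 322, just under 2-fold. Ppargc1a was under the floor on all 3 arrays. Tfam, which packages and transcribes mitochondrial DNA, had 169, 257 and 163, and Nrf1 77.5, 68.2 and 66.7, without a 2-fold difference. The lowest at 72 h were Gabpb1 (71.3, 92.5 and 40.7) and Polg, the mitochondrial DNA polymerase (287, 231 and 179).

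Of 13 measured partners of the chain whose symbols fall outside the rule, 5 were higher at 72 h against 0 h and 0 lower (median 0.81), with 13.1% and 13.4% of all genes. Chchd10, a protein of the intermembrane space, had signals of 393, 1297 and 2426, or 6.17-fold at 72 h over 0 h. Ndufab1, the acyl carrier protein that is also a complex I subunit, had 446, 1790 and 2307, or 5.18-fold, a larger factor than that of any of the 33 complex I genes. The ATP and ADP exchangers Slc25a4 (1375, 2848 and 4366) and Slc25a5 (2591, 5730 and 6895) were 3.18-fold and 2.66-fold higher. Atpif1, the inhibitor of the ATP synthase, had 1329, 1900 and 1259, and Ucp3, an uncoupling protein family member, was at the floor (33.8, 40.5 and 28.4). Of the subunits encoded in mitochondrial DNA 1 was named on the array, ND5 of complex I. Its signals of 3499, 1979 and 5740 put it 1.77-fold below 0 h at 24 h and 1.64-fold above 0 h at 72 h, and 2.90-fold higher at 72 h than at 24 h, on 1 probe set.

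**Figure D4:**
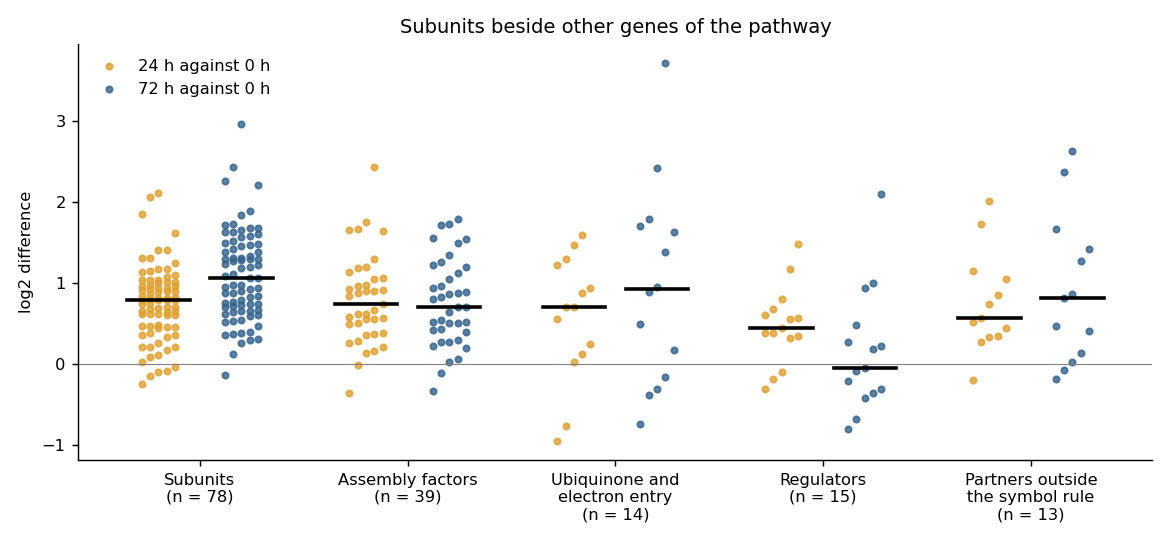
log2 difference for 24 h against 0 h (orange) and 72 h against 0 h (blue) of the 78 measured subunits beside 39 assembly factors, 14 genes of ubiquinone synthesis and electron entry, 15 regulators and 13 partners outside the symbol rule; each point is a gene and black bars are medians. The subunit median goes up between the 2 times (0.79 and 1.06), the assembly factor median stays level (0.74 and 0.70), and the regulator median is 0.44 and -0.05.

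The mitochondrial ribosomal proteins, which translate the few subunits encoded in mitochondrial DNA, are set beside the chain here. Of 74 measured, 36 were higher at 24 h against 0 h (14.0% of all genes) and 26 at 72 h (13.1%), with medians of 0.94 and 0.84. Between 72 h and 24 h, 21 of 74 had a positive difference and the median was -0.24, beside 69 of 78 and 0.32 for the respiratory chain. The V-ATPase subunits, the other large proton-moving complex of these cells, had 2 of 14 measured genes higher and 1 lower at 24 h, near the background of 14.0% and 9.37%, and 10 higher and 2 lower at 72 h (13.1% and 13.4%), with medians of 0.30 and 1.57. These comparisons rest on the same arrays and have no test.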

How the data were processed

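Total RNA of 3 cultures was labelled as biotin cRNA from 5 µg and hybridised to 1 array per time, per the labels' protocols. The deposited values are intensity signals on a linear scale, made by the authors with MAS5, per the submitters' processing notes; neither its version nor a genome build is given in the sources used here. Control probe sets (64 of 22690) were set aside. The 2016 platform annotation named the genes: 20380 probe sets had 1 symbol and 691 several, and those with several named no gene. All 80 subunits matched a RefSeq gene (GRCm38.p6) by identifier.

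Log2 signals were centred on each array's median over 22626 gene probe sets and put on the mean of the 3 medians. Values under the floor, the 40th percentile pooled over arrays (29.6 signal units), were set to it for differences. The filter used the mean over all 3 arrays, and 2 of these were from cultures with RANKL. Near the floor it therefore favours genes with higher signals under RANKL, such as Cox6a2, which was under the floor without it. When at least 1 of the 2 arrays compared had to be above the floor instead, the subunit counts past 2-fold were the same. With 1 array per time no test was possible, so the design held none; sets are described by counts past 2-fold and medians beside those of all measured genes. The scripts were tested on simulated data. Named genes were, per complex, core subunits, the 3 highest and 3 lowest differences at 72 h, tissue isoforms and members whose probe sets disagreed in sign, and, of other lists, the 2 highest and 2 lowest. The other genes named (such as Tfam, Nrf1, Pprc1, Esrra, Slc25a4 and Slc25a5), and the members shown for unequal probe sets of 1 sign, were chosen after their values were seen. The members and lists were chosen with earlier results of these data known. Analyses used Python 3.11.15, pandas 2.3.3 and numpy 2.4.6.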

Additional observations from a re-analysis of the deposited data

Results flagged for a closer look

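Probe sets that the annotation gives to several genes were left out of every count, and 6 of those that name a respiratory chain gene had a higher signal at 72 h than in the untreated 0 h culture. These 6 were picked out because they were higher, so their shared direction is not a result. The remaining one, shared by Yjefn3 and Ndufa13, was under the floor at 0, 24 and 72 h (4.55, 6.33 and 9.56). The probe set shared by Ndufs5 and its pseudogene was 2.29-fold higher at 72 h, and the one shared by Ndufa11 and Ndufa11b 2.29-fold. Of the 2 probe sets shared by Ndufb4 and its copies, 1 was 2.21-fold and the other 3.00-fold higher. The probe set shared by Ndufs6 and Ndufs6b was 2.16-fold higher. The one shared by Ndufb2 and Adck2 started under the floor and was at least 1.60-fold higher. Which of the genes gave these signals was not tested. No group has more than 1 array, so no sample could be set against others of its group.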

How the results depend on the processing

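With 12 alternatives, the direction of the subunit medians held in all 3 comparisons, and 31 of the 40 subunits higher at 72 h against 0 h were 2-fold higher under each of up to 11 alternatives that kept the 2-fold line and measured them. Many of these alternatives could not undo a call of a bright subunit. The floor and filter settings leave its value as it is, and the deposited scale raises it. The probe set settings leave a subunit with 1 probe set unchanged or unmeasured. On the deposited scale, which leaves in the upward shift of the whole array, 65 subunits were higher at 24 h and 75 at 72 h against 0 h. The subunit medians were 1.51 and 1.83 (complex I 1.51 and 1.72, II 1.45 and 2.04, III 1.82 and 2.40, IV 1.26 and 1.5, V 1.64 and 1.88). On that scale 41.7% of all measured genes were higher and 3.81% lower at 24 h, and 37.0% higher and 5.58% lower at 72 h. Relative to all measured genes, the subunit median stood 0.53 to 0.70 higher at 24 h and 0.87 to 1.14 higher at 72 h over all settings. The 24 h count of 21 was 10 after quantile normalization and 9 after trimmed mean scaling; the cause was not tested. At 1.5-fold the counts were 55, 65 and 12 for 24 h against 0 h, 72 h against 0 h and 72 h against 24 h. Of all measured genes 28.2%, 24.0% and 14.0% were then higher. The 12 subunits of the last comparison were 15.4%, near that background. With no floor, 1 subunit, the dim Cox8b, was lower in each comparison. Without multi-transcript probe sets Atp5c1 and Uqcrq reversed at 72 h, to -0.65 and -0.13, since only dim probe sets were left. The mean over probe sets above the floor on all arrays was chosen after seeing the data; it gave 42 higher at 72 h. With the floor at the 60th percentile Cox7a1 had 0.00 at 24 h and 1.65 at 72 h. No paired analysis was possible because each time has 1 array.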
